A study of Mus musculus with 8 samples.

Results

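This account follows the miRNAs of mouse footpad skin between the embryonic days E16.5 and E17.5 where Dicer was conditionally knocked out (cKO). The footpad is the hairless skin of the paw, where eccrine sweat glands form, and the study asked which part miRNAs play in the gland after its induction. The arrays were chosen by their titles, and they are the 4 cKO arrays, 2 at each day, of the 8 arrays in the series. The other 4 arrays are of wild-type embryos of the same days, and they serve here to show which changes were also found without the knockout. All embryos were C57BL6. Each array carried Cy3-labelled RNA from the pooled footpads of 3 to 5 embryos, so the spread between replicates is that between pools and not between single embryos. The labels used here do not say which Cre or promoter drove the deletion or in which cells Dicer was lost.

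Dicer is the enzyme that cuts the precursor hairpin of a miRNA into its mature form. The mature miRNA then guides an Argonaute protein to messenger RNAs that match its seed, the bases 2 to 8 from its 5′ end, and lowers their output. miRNAs that share a seed share most of their targets. In skin, miR-203 and miR-205 belong to the epidermis and the miR-200 family to epithelia in general, while miR-199a and miR-214 belong to the mesenchyme of the dermis. A conditional knockout leaves the miRNAs of the cells in which Dicer is intact. In a whole piece of skin, fewer cells of a type and less miRNA per cell cannot be told apart.

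The sequences below are the mature miRNAs on which the results turn, from RefSeq (GRCm38.p6), 5′ to 3′ with the seed in capitals. The first 4 gave the brightest signals in the knockout, and the next 5 were the brightest of the other miRNAs for which a sequence was found.
miR-6366: aGCUAAGGggcccggggagcca
miR-3963: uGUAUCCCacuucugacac
miR-3968: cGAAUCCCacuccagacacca
miR-5100: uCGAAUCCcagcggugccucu
miR-199a-3p: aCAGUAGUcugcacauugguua
miR-125b-5p: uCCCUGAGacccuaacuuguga
miR-199a-5p: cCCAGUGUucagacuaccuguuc
let-7a-5p: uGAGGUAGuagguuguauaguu
let-7f-5p: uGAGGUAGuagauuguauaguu
miR-3963, miR-3968 and miR-5100 share a run of 6 bases, AUCCCA, which lies in or across the end of their seeds. miR-3968 and miR-5100 share the longer run CGAAUCCCA. The run AUCCCA was present on the given strand in 7 of 1679 mature miRNAs of the table (0.417%), and these 3 were the only holders among the 332 tested miRNAs with a sequence. miR-3968 lies at chr11:115447969-115447989 on the minus strand within the span of Trim80, and miR-5100 at chr11:60728698-60728718 on the plus strand within that of Mief2. miR-3963 (chr3:151023839-151023857, minus strand) and miR-6366 (chr16:18165093-18165114, minus strand) lie within no other annotated gene of the table.

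The next set is of miRNAs that rose or fell in the knockout between the days, with the pair of epidermal miRNAs last.
miR-136-5p: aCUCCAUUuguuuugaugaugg
miR-152-3p: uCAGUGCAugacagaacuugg
miR-29a-3p: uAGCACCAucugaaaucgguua
miR-101a-3p: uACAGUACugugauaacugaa
miR-101c: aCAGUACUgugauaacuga
miR-133b-3p: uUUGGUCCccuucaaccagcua
miR-3063-3p: uGAGGAAUccugaucucucgcc
miR-302c-3p: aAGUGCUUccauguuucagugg
miR-7661-3p: uUGACUCCcaguuucucucugc
miR-5126: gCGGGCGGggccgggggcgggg
miR-203-3p: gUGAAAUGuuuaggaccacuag
miR-205-5p: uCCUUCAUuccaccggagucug
None of the seeds of this set is shared by any pair of its members. The 19 bases of miR-101c form a stretch of miR-101a-3p, so the signals of these probes cannot be told apart. The same holds in part for let-7 members, which differ from each other in few bases.

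Signals are given on a scale in which 1 is an array's 75th percentile, taken over those probes that all 8 arrays detected, and a difference between days is given as log2. Of 1881 mouse miRNAs on the array, 365 and 281 were detected on the cKO arrays of E16.5 and 383 and 352 on those of E17.5, against 279 to 384 on the wild-type arrays. The number was lowest on the second replicate of each genotype at E16.5. In the knockout, 276 miRNAs were detected on all 4 arrays and 356 on both arrays of at least 1 day. Replicate cKO arrays correlated across miRNAs at r = 0.998 on each day, with miRNAs not being independent of each other. The median difference between replicates was 0.078 on the log2 scale at E16.5 and 0.060 at E17.5. Dicer mRNA is not measured by these arrays. All 11 epithelial miRNAs described below were lower on each cKO array than on each wild-type array.

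The signal left in the knockout was held by few probes. miR-6366 gave 844 and 838 at E16.5 and 670 and 711 at E17.5, between 44.1% and 48.1% of the summed signal of an array's detected miRNAs. miR-3963 gave 452 and 428 at E16.5 and 375 and 394 at E17.5. Both were lower on each E17.5 array than on each E16.5 array, but neither difference passed the test (log2 change −0.28, adjusted p = 0.0949 by limma, and −0.19, adjusted p = 0.195). miR-3968 (87.2 ± 4.62, SD over the 4 arrays) and miR-5100 (84.8 ± 9.19) followed, and their order differed between the days. Together these 4 miRNAs took 82.0% and 82.5% of the signal at E16.5 and 79.1% and 79.9% at E17.5. They held ranks 1 to 4 in wild type as well. A rank here is one of signal and not of copies, since probes differ in how well they bind.

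**Figure D1:**
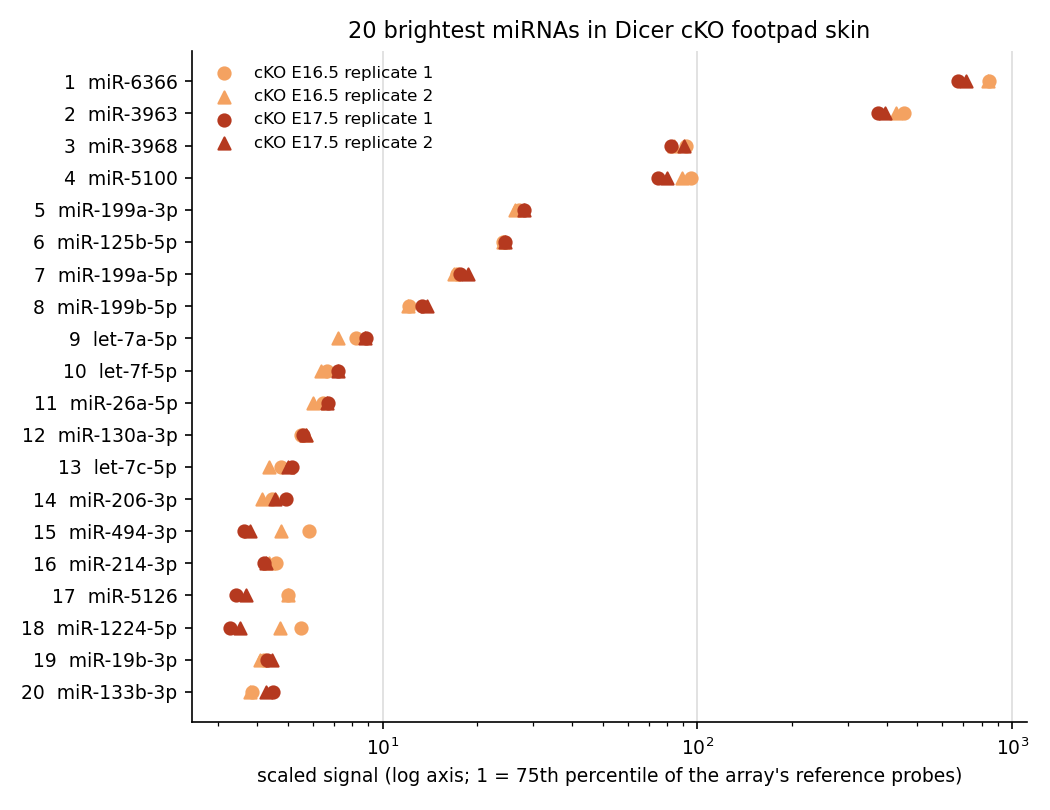
Scaled signal (log axis) of the 20 brightest miRNAs on each of the 4 Dicer cKO arrays, ordered by their mean. Circles are replicate 1 and triangles replicate 2. The first 4 lie above 74 on every array and miR-199a-3p, the fifth, between 26.4 and 28.2.

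Among the remaining miRNAs the order was led by miR-199a-3p. miR-199a-3p, a miRNA of fibroblasts, gave 27.2 and 26.4 at E16.5 and 28.2 and 28.2 at E17.5. miR-125b-5p, which is broadly expressed and not particular to mesenchyme, gave 24.1, 24.2, 24.6 and 24.6 on the same arrays. miR-199a-5p (17.6 ± 0.752, SD, n = 4) and miR-199b-5p (12.8 ± 0.891) came next, then let-7a-5p (8.29 ± 0.774) and let-7f-5p (6.87 ± 0.428). These ranks, 5 to 10, were the same on all 4 arrays. miR-26a-5p held rank 11 on each of them. From miR-130a-3p at rank 12 (5.63 ± 0.0839) to the muscle miRNA miR-133b-3p at rank 20 (4.10 ± 0.342) the order changed between arrays. The means of miR-206-3p, miR-494-3p, miR-214-3p, miR-5126, miR-1224-5p, miR-19b-3p and miR-133b-3p lay between 4.10 and 4.52 with SDs of 0.168 to 1.06, and neighbours in this stretch differed by less than their spread. Of the 20 brightest miRNAs, 18 were so on all 4 cKO arrays, and 6 have a miRBase number of 1000 or above. The 20 together held between 88.6% and 90.6% of the signal.

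The list differed from that of wild-type skin in its epidermal members. Of the 20 brightest miRNAs in cKO, 18 were also among the 20 brightest in wild type. The other two of the wild-type list were miR-203-3p and miR-205-5p, which held ranks 8 and 9 there and ranks 59 and 55 in the knockout. Their places in the cKO list were taken by miR-5126 (rank 26 in wild type) and miR-133b-3p (rank 21). miRNAs numbered below 1000 with a sequence here held 13.7% and 13.6% of the cKO signal at E16.5 and 16.8% and 16.1% at E17.5. This leaves out miR-199b-5p among others, which were counted with no seed. Within that part of the signal, the 9 members with the let-7 seed took the largest share of any seed. It was 12.6% and 12% at E16.5 and 13.3% and 13.2% at E17.5. miR-199a-3p took between 10.98% and 11.06% of it on the 4 arrays, and the 3 members with the miR-125 seed between 10.5% and 11.2%.

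Between E16.5 and E17.5 the changes in the knockout were many and small. Of 385 miRNAs tested, 58 rose (15.1%) and 78 fell (20.3%) by limma at an adjusted p under 0.05, 35.3% in either direction. No rise reached 2-fold (0 of 58, with 0.44 on the log2 scale as the largest), and 3 falls did, with dim values set to the floor of the measurement. The rises had a median of 0.25 and the falls of −0.51. On 274 of the 385 miRNAs (71.2%) the arrays of the days did not overlap, which holds for many that did not pass. These counts rest on single arrays. Without a cKO array of E16.5, 28 rose and 27 fell (replicate 1) or 22 rose and 69 fell (replicate 2). Without one of E17.5, 22 rose and 10 fell (replicate 1) or 22 rose and 21 fell (replicate 2). Without either wild-type array of E17.5, which enters through the common estimate of the spread, 21 rose and 28 fell.

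How many miRNAs were called in each direction depended on how the arrays were put on a common scale. The 385 tested miRNAs had a median change of 0 with the main scaling, 0.36 without any scaling, 0.20 on the 75th percentile of all probes, 0.03 after quantile normalization and 0.12 on the array's positive control probes. Without scaling 23 rose (5.97%) and 5 fell (1.3%), and on all probes 2 rose (0.519%) and 5 fell (1.3%). Quantile normalization gave 108 rises (28.1%) and 67 falls (17.4%), and the control probes 143 (37.1%) and 8 (2.08%). Scaling on the median of the detected probes gave 41 rises (10.6%) and 78 falls (20.3%). Relative to the median of all miRNAs, 55 of the 58 rises lay above it and 78 of the 78 falls below it under all 6 scalings. This is largely so by construction. All scalings but quantile normalization divide an array by a single number, which shifts miRNAs above the floor alike. The same holds for the medians of lists given below relative to all miRNAs. miR-29a-3p rose, and miR-3063-3p, miR-302c-3p and miR-7661-3p fell, under all 6. With normexp background correction in place of the scanner's own, 37 rose and 141 fell. Of the rises 26 passed there and of the falls 76, and 55 of the rises lay above and 75 of the falls below that setting's median of −0.17. Among the rises described below 18 were negative there without passing, with those of miR-29a-3p, miR-101a-3p and miR-376b-5p among them. Changes below are relative to the other miRNAs on the arrays.

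**Figure D2:**
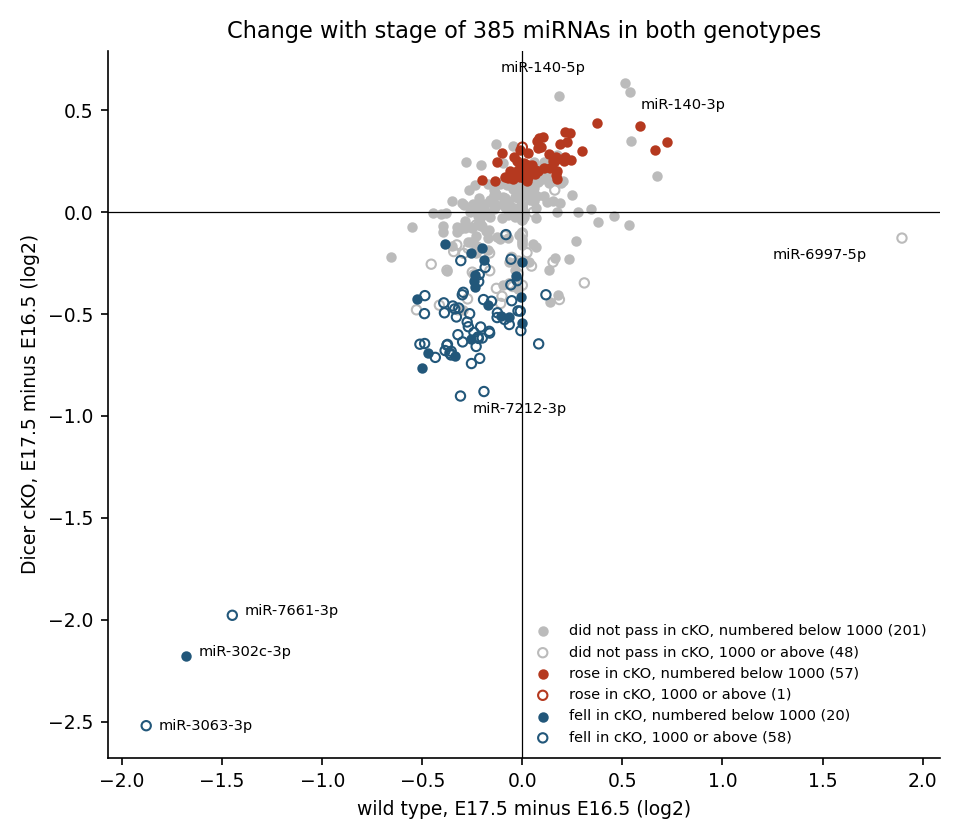
Change from E16.5 to E17.5 (log2) of the 385 tested miRNAs in Dicer cKO (vertical axis) against wild type (horizontal axis), coloured by the cKO test, with open circles for miRNAs numbered 1000 or above. The 3 largest falls lie low in both genotypes, while miR-6997-5p rose in wild type and did not pass in cKO.

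Of the 58 rises, 9 passed the test in each of the 8 fits that left out 1 array: miR-136-5p, miR-152-3p, miR-29a-3p, miR-101a-3p, miR-133b-3p, miR-154-5p, miR-193a-3p, miR-185-5p and miR-300-3p. miR-136-5p, from the imprinted cluster on chromosome 12, had the largest rise. It gave 0.723 and 0.682 at E16.5 and 0.984 and 0.918 at E17.5 (log2 change 0.44, SE 0.055, adjusted p = 0.0121 by limma). In wild type it went from 0.577 and 0.549 to 0.710 and 0.745 and rose as well (0.37, adjusted p = 0.0191). miR-152-3p, which shares its seed with miR-148a-3p and miR-148b-3p, gave 0.763 and 0.786 at E16.5 and 0.980 and 0.976 at E17.5 (0.34, SE 0.029, adjusted p = 0.00401). Of the 3 tested miRNAs with that seed, 2 rose in the knockout, where 15.1% of all tested miRNAs rose.

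The miR-29 family is known to repress collagens and other genes of the extracellular matrix. miR-29a-3p gave 0.0557 and 0.0592 at E16.5 and 0.0745 and 0.0741 at E17.5 (log2 change 0.37, SE 0.039, adjusted p = 0.00795 by limma). It was dim, and only 1 of the 2 arrays of E16.5 counted it as detected. miR-29c-3p rose too (0.24, adjusted p = 0.0372), though it passed in only 2 of the 8 fits without 1 array, and miR-29b-3p, at the floor of the measurement at E16.5, did not pass (0.01, adjusted p = 0.153). miR-101a-3p gave 0.0938 and 0.0921 at E16.5 and 0.122 and 0.118 at E17.5 (0.37, SE 0.036, adjusted p = 0.00717). In wild type it gave 0.103 and 0.106, then 0.109 and 0.113, and did not pass there (0.09, adjusted p = 0.162). The difference between the genotypes in this change was 0.28 and did not pass (adjusted p = 0.0636).

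**Figure D3:**
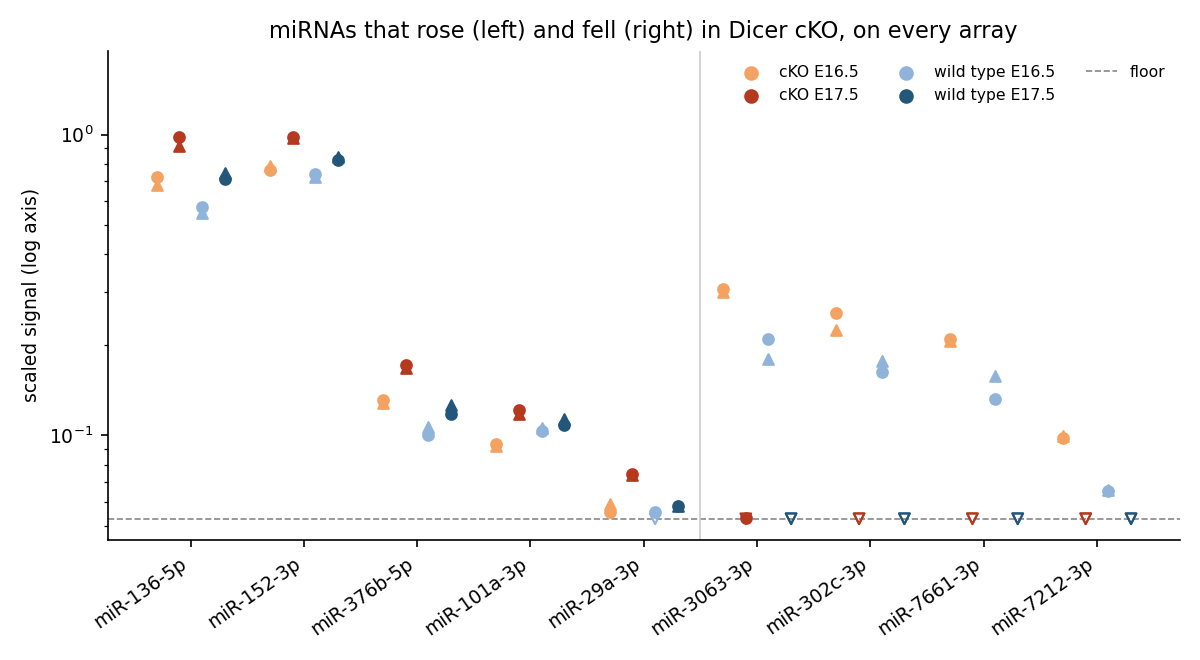
Scaled signal (log axis) of 5 miRNAs that rose and 4 that fell in Dicer cKO, on each array of both genotypes, with circles for replicate 1, triangles for replicate 2 and open inverted triangles for values below the floor (dashed). The cKO arrays of E17.5 lie above those of E16.5 for the rises, and close to or below the floor for the falls.

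The imprinted cluster on chromosome 12 is a large set of miRNAs made from the maternal allele and abundant in embryonic mesenchyme. It gave the most rises of any list of related miRNAs, and is also the longest of them. Of its 49 tested members 18 rose and 2 fell, where 15.1% of all 385 rose and 20.3% fell. Shorter lists had larger shares of rises, such as 5 of 6 for the miR-23, miR-27 and miR-24 clusters. The median of the 49 was 0.16 against 0 over all 385. Relative to all miRNAs, that median lay between 0.15 and 0.24 under the 6 scalings, while the number of rises ran from 0 to 33. miR-376b-5p gave 0.131 and 0.128 at E16.5 and 0.172 and 0.168 at E17.5 (log2 change 0.39, SE 0.053, adjusted p = 0.0135 by limma). miR-376a-3p gave 1.6 and 1.47, then 1.93 and 1.86 (0.31, SE 0.046, adjusted p = 0.0169). miR-136-3p, the other arm of the hairpin that gives miR-136-5p, gave 0.239 and 0.226, then 0.304 and 0.289 (0.35, SE 0.051, adjusted p = 0.0165). Each of these 3 lost its call in 1 of the 8 fits without 1 array. The falls were those of miR-494-3p and of miR-370-3p (−0.18), the second of which was chosen after its value was seen and was positive without scaling, on all probes and on the control probes. miR-494-3p gave 5.86 and 4.75 at E16.5 and 3.62 and 3.79 at E17.5 (−0.51, SE 0.10, adjusted p = 0.0235), against the direction of its neighbours. This fall passed under 3 of the 6 scalings, and it ran from −0.66 to −0.36 when 1 array was left out. In wild type 4 members of the cluster rose and 4 fell, with a median of −0.03, and the change differed between genotypes for none of the 49 (0 past the test).

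Skeletal muscle lies beneath the footpad skin, and its miRNAs were in the RNA. Of 5 tested members 3 rose and none fell (0), where 15.1% of all tested miRNAs rose and 20.3% fell. Their median was 0.25, and it lay between 0.22 and 0.34 relative to all miRNAs under the 6 scalings. miR-133b-3p gave 3.85 and 3.78 at E16.5 and 4.5 and 4.27 at E17.5 (log2 change 0.20, SE 0.031, adjusted p = 0.0169 by limma). miR-133a-3p, of the same family, gave 1.19 and 1.12, then 1.42 and 1.32 (0.25, SE 0.049, adjusted p = 0.0235). miR-1a-3p, made together with miR-133a, gave 0.883 and 0.821, then 1.09 and 1.01 (0.30, SE 0.076, adjusted p = 0.0372). miR-206-3p (0.14, adjusted p = 0.105) and miR-499-5p (0.27, adjusted p = 0.101) did not pass. miR-133a-3p passed in 4 and miR-1a-3p in 2 of the 8 fits without 1 array. In wild type the median of the 5 was 0.15, and none of them passed (0 of 5).

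Lists of other cell types of skin are short, and their counts are set against the 15.1% of all tested miRNAs that rose. Both arms of endothelial miR-126a rose, miR-126a-3p from 1.9 and 1.9 to 2.19 and 2.41 (log2 change 0.27, adjusted p = 0.0264 by limma). miR-126a-5p went from 0.116 and 0.111 to 0.141 and 0.135 (0.28, adjusted p = 0.0233). They passed in 3 and 2 of the 8 fits without 1 array. Of the nerve and glia list, the glial miRNAs miR-338-3p (0.34, adjusted p = 0.0350) and miR-219a-5p (0.25, adjusted p = 0.0388) rose out of 4 tested. Both were dim, and they passed in 1 and 2 of the 8 fits. Of the dermal fibroblast and smooth muscle list 2 of 8 rose, miR-152-3p and the smooth muscle miRNA miR-143-3p (0.29, adjusted p = 0.0231), and its median of 0.08 changed sign relative to all miRNAs under the scalings (−0.03 to 0.18). Of 5 white blood cell miRNAs miR-146a-5p rose (0.15, adjusted p = 0.0253), and of 3 red cell miRNAs none passed (0). miR-451a, whose maturation uses Argonaute 2 in place of Dicer, gave 3.82 and 3.64 at E16.5 and 3.99 and 3.56 at E17.5 (0.02, 95% confidence interval −0.55 to 0.58).

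Cartilage miRNAs set 1 array apart. miR-140-3p, the main miRNA of chondrocytes, gave 0.732 and 0.579 at E16.5 and 1.57 and 0.608 at E17.5, and miR-140-5p gave 0.267 and 0.222, then 0.591 and 0.242. The high values are those of cKO replicate 1 of E17.5. Neither passed (log2 change 0.59, adjusted p = 0.354, and 0.63, adjusted p = 0.280 by limma). Without an array the change of miR-140-5p ran from −0.01 to 1.28. miR-455-5p rose (0.32, adjusted p = 0.0217), in 2 of the 8 fits without 1 array, and miR-455-3p did not pass (0.03, adjusted p = 0.801). On the same replicate the summed signal of the skin epithelial list was the lowest of the 4 cKO arrays, 2.85 against 3.77 to 4.32. Its part in the other results was not tested beyond the fits without it.

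Among miRNAs that occur in most cell types, rises were spread over a few families, where 15.1% of all tested miRNAs rose. Of 9 let-7 members let-7d-5p (log2 change 0.23, adjusted p = 0.0268 by limma), let-7i-5p (0.20, adjusted p = 0.0388) and let-7b-5p (0.20, adjusted p = 0.0226) rose, in 2, 2 and 4 of the 8 fits without 1 array. The median of the 9 was 0.20, and relative to all miRNAs it lay between 0.14 and 0.29 under the 6 scalings. The let-7 family restrains growth genes and builds up as tissues mature. Of 6 tested members of the miR-23, miR-27 and miR-24 clusters 5 rose. miR-27a-3p went from 1.36 and 1.42 to 1.63 and 1.68 (0.25, adjusted p = 0.0265), miR-27b-3p from 1.75 and 1.67 to 1.95 and 2.05 (0.23, adjusted p = 0.0260) and miR-24-3p from 2.66 and 2.55 to 2.92 and 3.09 (0.21, adjusted p = 0.0304). miR-23a-3p and miR-23b-3p rose by 0.18 and 0.15. The 5 calls held in 2 to 4 of the 8 fits.

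The miR-17 clusters promote proliferation. Of their 10 tested members 2 fell and none rose (0), a share of falls near the 20.3% of all tested miRNAs, and their median was −0.02. miR-92a-3p went from 1.35 and 1.33 to 1.16 and 1.17 (log2 change −0.20, SE 0.031, adjusted p = 0.0169 by limma), and miR-17-5p from 0.211 and 0.209 to 0.184 and 0.173 (−0.24, SE 0.058, adjusted p = 0.0338). They passed in 5 and 2 of the 8 fits without 1 array. Both were positive on other scales, miR-17-5p without scaling and on all probes, and miR-92a-3p on these and on the control probes, and the median of the 10 members changed sign relative to all miRNAs (−0.06 to 0.07). In wild type 2 of the 10 fell, with miR-92a-3p among them (−0.26, adjusted p = 0.0129). Of the miR-181 family 1 of 5 fell, again near the 20.3% of all, and this was miR-181b-5p (−0.16, adjusted p = 0.0388), which was positive on these 3 scales too. Of the 8 tested miR-30 miRNAs miR-30b-5p (0.19) and miR-30a-3p (0.19) rose while miR-30b-3p, the passenger arm of the former, fell from 0.109 and 0.117 to 0.0645 and 0.0684 (−0.76, adjusted p = 0.0260). These 3 calls held in 1, 4 and 2 of the 8 fits. The miR-322 and miR-503 cluster gave 3 rises of 10 (miR-450a-5p, miR-503-5p and miR-542-3p, 0.17 to 0.20), the miR-15 and miR-16 family 1 of 6 (miR-195a-5p, 0.39) and the Hox clusters 1 of 5 (miR-10b-5p, 0.27). Of all tested miRNAs 15.1% rose, and the shares of the miR-15 and miR-16 family and of the Hox clusters lie near that. Of 7 tested miRNAs of the miR-125, miR-99 and miR-100 list miR-100-5p rose (0.22) and miR-125a-3p fell (−0.34), though it was positive without scaling.

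**Figure D4:**
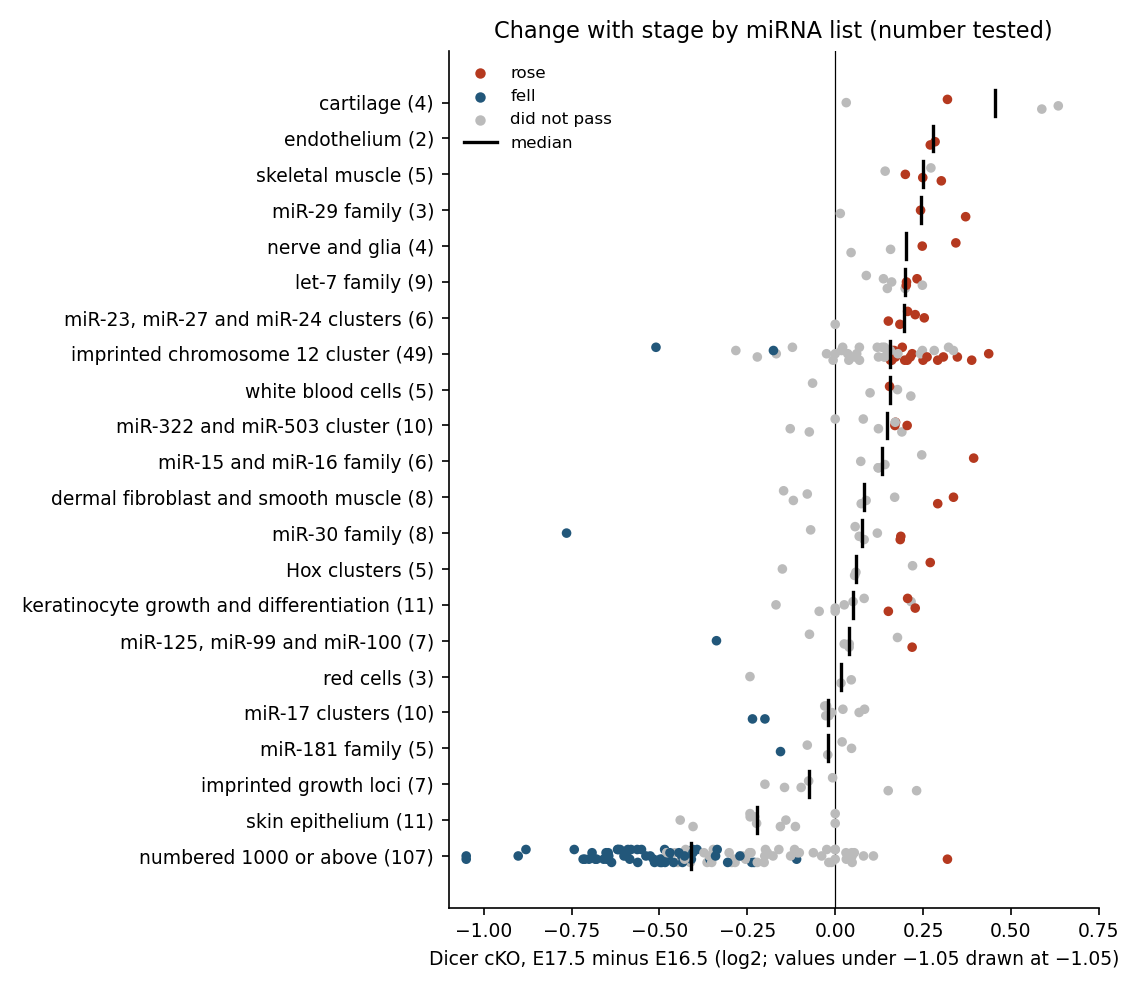
Change from E16.5 to E17.5 in Dicer cKO (log2) of the tested members of each list, 1 point a miRNA, with black bars at the median. miRNAs numbered 1000 or above (107, median −0.41) and the skin epithelium list (11, median −0.22) lie lowest.

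The epithelial miRNAs that remained in the knockout were mostly lower on the later day, without passing the test, and by amounts that rest on 1 array. Of the 11 tested miRNAs of the skin epithelium list (miR-203, miR-205, and the clusters of miR-200 and of miR-183) none passed in either direction (0 rose, 0 fell), with a median of −0.22. Relative to all miRNAs that median lay between −0.24 and −0.06 under the 6 scalings. miR-205-5p gave 1.55 and 1.72 at E16.5 and 1.06 and 1.37 at E17.5, lower on both later arrays (log2 change −0.44, 95% confidence interval −0.78 to −0.10, adjusted p = 0.0554 by limma). miR-203-3p gave 1.5 and 1.58, then 0.984 and 1.38 (−0.40, interval −0.83 to 0.02, adjusted p = 0.112). miR-200b-3p, the brightest of its family, gave 0.297 and 0.305, then 0.234 and 0.283 (−0.22, interval −0.49 to 0.05). The other members of that family ranged from −0.24 to −0.14. Without cKO replicate 1 of E17.5 the change was −0.25 for miR-205-5p, −0.16 for miR-203-3p and −0.09 for miR-200b-3p, and that of miR-96-5p was positive (0.06). Without replicate 2 of that day miR-205-5p and miR-203-3p passed (−0.63 and −0.65, adjusted p = 0.0349 for each by limma). Leaving out 1 array at a time, miR-200c-3p ranged from −0.35 to 0.07, miR-200a-3p from −0.31 to −0.0047 and miR-429-3p from −0.47 to −0.013. miR-182-5p gave 0.0955 and 0.0976, then 0.0718 and 0.0928 (−0.24, adjusted p = 0.215), and miR-96-5p −0.11 (adjusted p = 0.565). miR-183-5p and miR-203-5p were detected on none of the 4 cKO arrays and on all 4 of wild type.

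The level of the list was far below that of wild type on both days. Summed, its 11 members gave 4.10 and 4.32 in cKO at E16.5 and 2.85 and 3.77 at E17.5, against 27.4 and 27.9 and then 29.2 and 32.3 in wild type. They made up between 0.187% and 0.248% of the cKO signal. All 11 were lower in cKO than in wild type at E16.5 (median −2.08, with 15.1% of all 385 lower and 35.8% higher) and at E17.5 (median −2.29, with 10.1% of all lower and 35.8% higher). In wild type the change of the list from E16.5 to E17.5 had a median of 0.14, and 1 of the 11 fell, miR-183-5p. The change with the day differed between genotypes for none of them (0 of 11 past the test), with a median difference of −0.28. For miR-205-5p the difference was −0.58 (SE 0.19, adjusted p = 0.130). miR-205-3p, the passenger arm, gave 0.104 and 0.116 in cKO at E16.5 and 0.0979 and 0.137 at E17.5 (0.08, adjusted p = 0.751 by limma), with −0.16 to 0.32 when 1 array was left out. In wild type it was dim, with 0.0644 and 0.0576 at E16.5 and 0.0639 and 0.0676 at E17.5. Unlike the 11 listed members, miR-205-3p was thus higher on each cKO array than on each wild-type array. The difference between the arms was not tested. Of the 11 tested miRNAs tied to keratinocyte growth and differentiation 3 rose, miR-24-3p, miR-27b-3p and miR-23b-3p, which many other cell types also make. The share that rose with the day over all tested miRNAs in cKO was 15.1%.

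**Figure D5:**
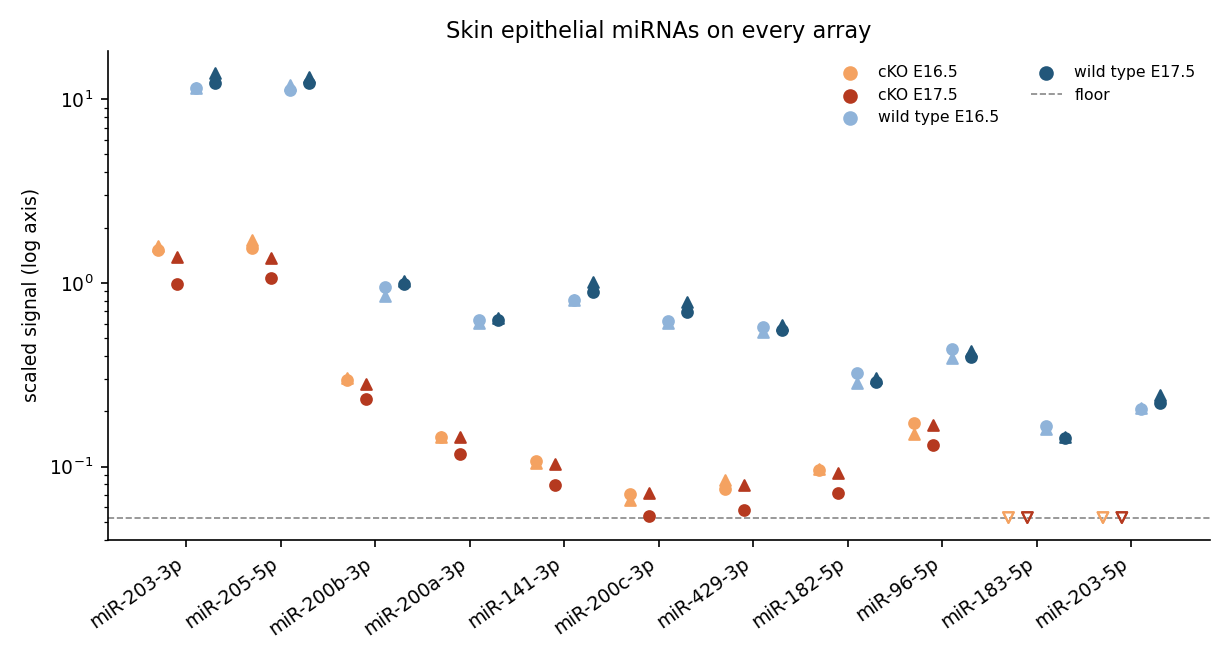
Scaled signal (log axis) of the 11 skin epithelial miRNAs on every array, with circles for replicate 1, triangles for replicate 2 and open inverted triangles for values below the floor (dashed). The cKO arrays lie below all wild-type arrays for each miRNA, and replicate 1 of E17.5 is the lower of its pair.

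The largest falls were of 4 miRNAs that were near the floor at E17.5. miR-3063-3p gave 0.307 and 0.30 at E16.5 and 0.0530 and 0.0119 at E17.5, where 1 of the 2 arrays detected it, a fall of at least 6.33-fold (adjusted p = 4.69e-05 by limma). miR-302c-3p, of a cluster known from pluripotent stem cells, gave 0.255 and 0.224, then 0.0447 and 0.0269, a fall of at least 5.44-fold (adjusted p = 6.48e-05). miR-7661-3p gave 0.210 and 0.206, then 0.0280 and 0.0116, and was not well above background on either later array (at least 5.27-fold, adjusted p = 0.000141). miR-7212-3p gave 0.0979 and 0.0996, then 0.0157 and 0.000359, and was likewise not well above background (at least 2.50-fold, adjusted p = 3.10e-06). Bounds take the dim days at the lowest signal counted as above background, which can lie below the floor. The p-values, also those of wild type below, belong instead to changes fitted with values set to the floor. In cKO these were −2.52 for miR-3063-3p, −2.18 for miR-302c-3p, −1.98 for miR-7661-3p and −0.90 for miR-7212-3p on the log2 scale. For miRNAs at the floor the p-value understates the spread between pools, since values at the floor do not vary. All 4 passed in each of the 8 fits without 1 array.

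The same 4 fell in wild type. There miR-3063-3p went from 0.210 and 0.180 to 0.00591 and 0.00289 (at least 6.04-fold, adjusted p = 0.000320 by limma), and miR-302c-3p from 0.163 and 0.176 to 0.0107 and 0.00370 (at least 5.26-fold, adjusted p = 0.000320). miR-7661-3p and miR-7212-3p fell at least 4.48-fold and 2.03-fold. At E16.5 each of the 4 was higher on both cKO arrays than on both wild-type arrays. Their genes lie apart, miR-3063 at chr11:95963304-95963325 on the minus strand within the span of Igf2bp1, miR-302c at chr3:127545406-127545427 on the plus strand within Larp7 and miR-7661 at chr6:108489782-108489803 on the plus strand within Itpr1. As listed above, the 3 with a sequence share no seed. In the other direction, 13 miRNAs were detected on both cKO arrays of E17.5 and on neither of E16.5. Of these, miR-30a-3p and miR-6481 rose by the test, both close to the floor. The bound exceeded 1 for miR-466g, at least 1.45-fold (adjusted p = 0.0621 by limma, not passed), and for miR-6481, at least 1.04-fold, and for none of the others.

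The remaining falls were smaller, and most of all falls were of 1 class of miRNAs. Of the 78 falls 58 (74.4%) have a miRBase number of 1000 or above, against 1 of the 58 rises, miR-6481. The large falls of miR-3063-3p, miR-7661-3p and miR-7212-3p are among these 58. Among the 107 tested miRNAs with such numbers 58 fell and 1 rose, with a median of −0.41. The 278 with lower numbers gave 20 falls, 57 rises and a median of 0.06. The gap between the medians was −0.47 with the main scaling. It lay between −0.56 and −0.25 over the 26 other settings tried. In wild type 10 of the 107 fell and 1 rose, with a median of −0.19, and 10.6% of all tested miRNAs fell there. The change differed between genotypes for 2 of the 107. miR-5126, 1 of the 20 brightest, gave 5.01 and 5.02 at E16.5 and 3.43 and 3.68 at E17.5 (log2 change −0.50, SE 0.082, adjusted p = 0.0173 by limma). It fell to a like degree in wild type (−0.49, adjusted p = 0.0249). miR-1224-5p gave 5.52 and 4.74, then 3.27 and 3.51 (−0.59, SE 0.093, adjusted p = 0.0169). miR-7047-5p gave 2.48 and 2.31, then 1.47 and 1.52 (−0.68, SE 0.14, adjusted p = 0.0248), and miR-6937-5p gave 1.28 and 1.24, then 0.767 and 0.794 (−0.69, SE 0.14, adjusted p = 0.0235). These 4 passed in 4, 6, 2 and 2 of the 8 fits without 1 array.

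The falls also differed from the rises in base composition. The 69 falls with a sequence had a median GC content of 65.2% (quartiles 58.3% and 69.6%), and the 48 rises with one 45.5% (38.1% and 50%), against 50% over the 332 tested miRNAs with a sequence. Across these 332 the change in cKO and the GC content correlated at r = −0.49 (Spearman's rho −0.60), and in wild type at −0.33 (−0.50). These are descriptions across miRNAs of the same arrays, which are not independent. Of 54 miRNAs with a GC content up to 40%, 13 rose and none fell (0). Of 84 above 60%, none rose (0) and 47 fell, where 15.1% of all tested miRNAs rose and 20.3% fell. Only 28 of these 84 are numbered below 1000, and 7 of the 28 fell, with a median change of −0.07. Within the miRNAs numbered below 1000 the trend was weaker (r = −0.34, rho −0.40, n = 241). Within those numbered 1000 or above r was −0.17 and rho −0.32 (n = 91). miR-5126, whose sequence above holds no base other than G and C, is the extreme of this range. Mean signal set the rises apart, with a median of −0.66 on the log2 scale. It was −2.59 for the falls and −2.54 for the 249 miRNAs that did not pass. The part of GC content, brightness or the class of number in the falls was not tested.

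In wild type the number of calls was lower with the main scaling and higher with others. There 16 miRNAs rose (4.16%) and 41 fell (10.6%), 14.8% in all, and leaving out 1 array at a time gave 2 to 14 rises and 6 to 47 falls, the fewest without replicate 2 of wild-type E17.5. On the positive control probes wild type gave 354 rises and 4 falls against 143 and 8 in cKO, without scaling 180 and 4 against 23 and 5, and on all probes 13 and 4 against 2 and 5. The cKO and wild-type changes come from different arrays of 1 slide and share none. Of the 58 miRNAs that rose in the knockout 41 were positive in wild type, 10 of them past the test, and of the 78 that fell 74 were negative, 16 of them past the test. The change itself differed between genotypes for 3 miRNAs upwards (0.779%) and 3 downwards (0.779%), 1.56% in all. These counts were 8 and 10 without cKO replicate 1 of E16.5, 12 and 30 without replicate 2, 9 and 3 without cKO replicate 1 of E17.5, 6 and 9 without wild-type replicate 2 of E16.5 and 3 and 6 without replicate 1, and 0 and 4 without either wild-type array of E17.5. Each genotype and day fills its own column of the slide, so position on the slide and group cannot be told apart.

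miR-6997-5p gave the largest difference between genotypes. It gave 0.231 and 0.203 in cKO at E16.5 and 0.197 and 0.200 at E17.5 (log2 change −0.13, adjusted p = 0.395 by limma). In wild type it went from 0.162 and 0.196 to 0.685 and 0.642, a rise of 1.9 (adjusted p = 0.000876). The difference of the changes was −2.02 (SE 0.16, adjusted p = 0.00594). miR-149-3p, a GC-rich passenger arm, fell in cKO from 0.0802 and 0.0802 to 0.0564 and 0.0560 and lay near the floor on all wild-type arrays (difference −0.45, SE 0.020, adjusted p = 0.000574). For miR-7212-3p both genotypes ended below the floor at E17.5, so its difference (−0.59, adjusted p = 0.000151) is that of the E16.5 levels. miR-298-5p, from an imprinted locus on chromosome 2, stayed between 0.0974 and 0.101 on the cKO arrays and fell in wild type from 0.134 and 0.138 to 0.102 and 0.102 (difference 0.40, SE 0.045, adjusted p = 0.0219). The differences of miR-324-5p (0.37, adjusted p = 0.0491) and miR-33-5p (0.20, adjusted p = 0.0219) were positive too. miR-33-5p was detected on neither cKO array of E16.5 and lay at the floor there. Those of miR-298-5p, miR-324-5p and miR-33-5p were negative when the arrays were scaled on the positive control probes.

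The miR-466 group, simple-repeat miRNAs of a cluster inside the gene Sfmbt2 and of related loci, had members that rose in both genotypes. miR-466f-3p gave 0.0747 and 0.0789 in cKO at E16.5 and 0.0959 and 0.110 at E17.5 (log2 change 0.42, SE 0.081, adjusted p = 0.0226 by limma), and miR-466h-3p 0.0969 and 0.0960, then 0.113 and 0.132 (0.34, adjusted p = 0.0388). With miR-466q (0.31, adjusted p = 0.0388) they made 3 rises out of 15 tested members of the miR-297, miR-466, miR-467 and miR-669 families, near the 15.1% of all tested miRNAs, with none that fell (0) and a median of 0.02. In wild type 5 of the 15 rose, miR-466h-3p by 0.72. The 3 cKO calls held in 2 or 3 of the 8 fits without 1 array. The members are near copies of each other, so their probes may share signal.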

How the data were processed

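Small RNA of mouse footpad skin was hybridised to 8 single-colour Agilent miRNA arrays, 2 for each genotype and day, all on 1 slide. Per the file headers, Feature Extraction 11.5.1.1 gave background-subtracted spot intensity values with no scaling between arrays; the deposited value table held the same intensity values where these were above 0. Spots were averaged per probe and divided by the array's 75th percentile over the 474 probes detected on all 8 arrays. Values below a log2 floor of −4.24 (the percentile 5 of detected probes) were set to it. A probe was detected where over 50% of its spots were well above background. The brightest of a miRNA's probes stood for it, and 385 of 1881 miRNAs were tested. limma 3.58.1 in R 4.3.3 was fitted to the 4 group means (residual degrees of freedom 4) with an intensity trend and Benjamini-Hochberg adjustment. No label says that pools came from separate litters, so p-values measure the spread between these samples.

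The members and lists were chosen with earlier results of these data known. The named miRNAs are the 20 brightest in cKO, the 15 largest rises and falls detected on both arrays of a cKO group whose days do not overlap, the 5 largest differences between genotypes each way, the epithelial list and up to 4 members of each other list. The text gives a selection of them. Members named beyond that rule (miR-370-3p, miR-503-5p, miR-23b-3p, miR-148a-3p, miR-148b-3p, miR-154-5p, miR-193a-3p, miR-185-5p, miR-300-3p and, for its bound, miR-466g) were chosen after their values were seen. Sequences were matched by name for 1608 of the 1881 miRNAs. Alternatives covered scaling, background, floor, filter, probe choice, the fit, the replicate block and leaving out each array.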

Additional observations from a re-analysis of the deposited data

Results flagged for a closer look

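The change from E16.5 to E17.5 differed between the knockout and wild type for 6 miRNAs in the limma test of that difference, with changes given here as cKO minus wild type on the log2 scale. miR-6997-5p differed by −2.02 and passed in 24 of 25 other settings (−2.61 to −1.39). miR-149-3p differed by −0.45 and passed in 16 of 23, and miR-7212-3p by −0.59 and passed in 18 of 23. Both lay at or near the floor in some groups. miR-298-5p differed by 0.40 (8 of 25 settings), miR-324-5p by 0.37 (6 of 25) and miR-33-5p, at the floor in cKO at E16.5, by 0.20 (8 of 23).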

How the results depend on the processing

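The ranking kept its leading miRNAs, and the 10 brightest held 86.8% of the cKO signal, against 85.0% with summed probes, 83.6% with normexp, 85.3% with the scanner software's total signal, 87.9% on cKO replicate 2 of E16.5 alone and 85.6% on cKO replicate 1 of E17.5 alone. The counts of calls depended on scaling and on single arrays, for causes that were not tested. Counts follow as rises and falls in cKO, then in wild type, then differences upwards and downwards. Without scaling they were 23 and 5, 180 and 4, and 0 and 2. On the 75th percentile of all probes they were 2 and 5, 13 and 4, and 0 and 0. On the median they were 41 and 78, 27 and 11, and 0 and 3. Quantile normalization gave 108 and 67, 22 and 22, and 11 and 13. The positive control probes gave 143 and 8, 354 and 4, and 0 and 317. Rises made up 42.6% of the cKO calls in the main setting and 82.1%, 28.6%, 34.5%, 61.7% and 94.7% under these 5. Normexp gave 37 and 141 in cKO, with 143 falls for wild type and 1 and 12 differences. Fitting the arrays of a genotype alone gave 23 and 34 for cKO against 0 and 5 for wild type. The scanner software's total signal, chosen after seeing the data, gave 27 rises in cKO and 0 and 1 differences. Scaling on miRNAs numbered below 1000, chosen likewise, gave 25 falls in wild type and 6 and 5 differences. Differences upwards fell to 0 with no filter, with miRNAs detected on all 8 arrays (1 downwards), with a lower floor (1 downwards, and 68 falls in wild type) and with miRNAs detected on both arrays of a cKO group, the last chosen after seeing the data. A higher floor gave 7 and 7 differences and summed probes 7 and 6. Leaving out 1 array gave 21 to 62 rises and 10 to 77 falls in cKO, then 2 to 14 and 6 to 47 for wild type, and 0 to 12 and 3 to 30 differences. In the remaining settings these counts stayed within 1.5 times.

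Replicate numbers mark rows of the slide, and deviations of same-numbered arrays correlated between −0.14 and 0.28, so the numbers were not taken as pairs. With the replicate block 56 rose and 66 fell in cKO (50 and 63 of them shared with the main result), and 1 difference was upwards and 5 downwards.

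Some changes in cKO took the other sign. Without scaling miR-17-5p was 0.21, miR-92a-3p 0.24, miR-125a-3p 0.10, miR-181b-5p 0.29 and miR-370-3p 0.27. On all probes miR-17-5p was 0.037, miR-92a-3p 0.073, miR-181b-5p 0.12 and miR-370-3p 0.097, and on control probes miR-92a-3p was 0.020, miR-181b-5p 0.065 and miR-370-3p 0.045. After quantile normalization miR-3968 was 0.16 and miR-298-5p 0.14. With normexp, whose median was −0.17, miR-466f-3p was −0.090, miR-195a-5p −0.011, miR-376b-5p −0.0061, miR-29a-3p −0.16, miR-101a-3p −0.067, miR-338-3p −0.10, miR-466h-3p −0.083, miR-455-5p −0.10, miR-6481 −0.067, miR-101c −0.16, miR-466q −0.13, miR-29c-3p −0.17, miR-30a-3p −0.19, miR-126a-5p −0.073, miR-146a-5p −0.19, miR-219a-5p −0.16, miR-185-5p −0.20 and miR-542-3p −0.13. Of the differences, miR-33-5p was −0.28 without scaling, −0.16 on all probes, −0.66 on control probes and −0.033 with normexp, and on control probes miR-298-5p was −0.19 and miR-324-5p −0.21. With 2 arrays a group, and many miRNAs near the floor, small changes of dim miRNAs are the least certain.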
